A study of Schmidtea mediterranea with 24 samples.

Results

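The 27 transcripts described here were far below their control level only when *post2b* was silenced in the planarian flatworm *Schmidtea mediterranea*. They were chosen from 22197 genes by level. A gene needed a mean of at least 1 TPM (transcripts per 1000000) over 24 libraries, a mean log2(TPM + 0.5) in *post2b* RNAi at least 1 below that in control RNAi, and a difference above -0.5 in each of *hox1*, *hox3a*, *hox3b* and *lox5b* RNAi. Of 14306 genes with that mean TPM, 123 met the *post2b* bound. Among these, 89 were at or below -0.5 in at least 1 other group, which was *lox5b* RNAi for 87 genes, *hox3a* RNAi for 56, *hox1* RNAi for 50 and *hox3b* RNAi for 42. That left 34 genes. Of these, 7 were left out by name, namely 6 genes on the study's own list of *post2b* effectors and a 16 kDa calcium-binding protein gene (SMESG000000553.1). None of the 27 has a product name in the sources used here, so their protein and cell type are not described. These sources hold only a part of the study's gene annotation.

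RNA-seq of whole asexual adults of the CIW4 strain was made in 6 groups, *post2b*, *hox1*, *hox3a*, *hox3b* and *lox5b* RNAi and control RNAi, in which animals ate dsRNA of *unc-22*. All animals were fed dsRNA 7 times and starved for 5 days. Each group had 4 libraries, each a pool of 3 animals, so the spread given here is that between pools. TPM keeps no read depth, and the depth is therefore unknown. In RNA of whole animals, fewer cells of a type and less RNA per cell cannot be told apart.

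Hox genes encode transcription factors that pattern the body axis, and *post2b* belongs to the posterior class. Planarians of this strain reproduce by fission, in which the tail anchors to the substrate and the body tears. Anchoring uses the marginal adhesive gland, where gland cells in the parenchyma secrete adhesive through specialised epidermal anchor cells. The study assigned some *post2b* effectors to these cells. They include *ifb* and *lmnAC*, which encode intermediate filament proteins, and *plg1*, a plasminogen-like gene, in a cluster named Epidermal-10, and *syt1*, a synaptotagmin gene, *rcn-1*, a reticulocalbin gene, and *fer3l2*, a transcription factor gene, in clusters named Parenchymal-8/13. The study picked these effectors from the changes in these same libraries, so their direction in *post2b* RNAi is not independent evidence. It also placed *rcn-1* in stem cell and brain clusters, and saw *rcn-1* near the pharynx unaffected by *post2b* RNAi.

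The primers that amplified the *post2b* fragment for dsRNA are shown because the silencing of this 1 fragment defines the transcripts. The gene-specific parts, without the shared cloning overhang, are each 23 bases long.
*post2b* forward: gtcaattaacgaattctccggat
*post2b* reverse: gatataactgaatcgctctgtcg
The sources used here do not pair the *post2b* transcript with a gene ID, and its own loss was not analysed here.

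The 27 transcripts kept 11.1 to 47.9% of their control level in *post2b* RNAi, with a median of 22.6%. These values chose the transcripts and are given without a test. The log2 difference was -2 or lower for 13 transcripts, between -2 and -1.5 for 4, and above -1.5 for 10. Control levels covered 1.54 to 814 TPM with a median of 19.9 TPM, close to the median of 18.8 TPM over the 14306 genes with a mean of at least 1 TPM. There were 3 transcripts at 100 TPM or more, 14 from 10 to under 100 TPM, and 10 under 10 TPM. Of all 15829 genes with at least 0.5 TPM in at least 4 libraries, which include all 27, 0.929% had a *post2b* difference of -1 or lower. The 4 *post2b* libraries lay below the 4 control libraries for 26 of the 27 transcripts, and the rule uses the same contrast. The share over the 15829 genes was 26.9%. They lay below all 20 other libraries for 22 of the 27, against 1.04% of the 15829 genes, which the rule again favours. The summed level of the 27 transcripts was 318 to 550.1 TPM in the *post2b* libraries and 1506 to 2357 TPM in the other 20 libraries.

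**Figure D1:**
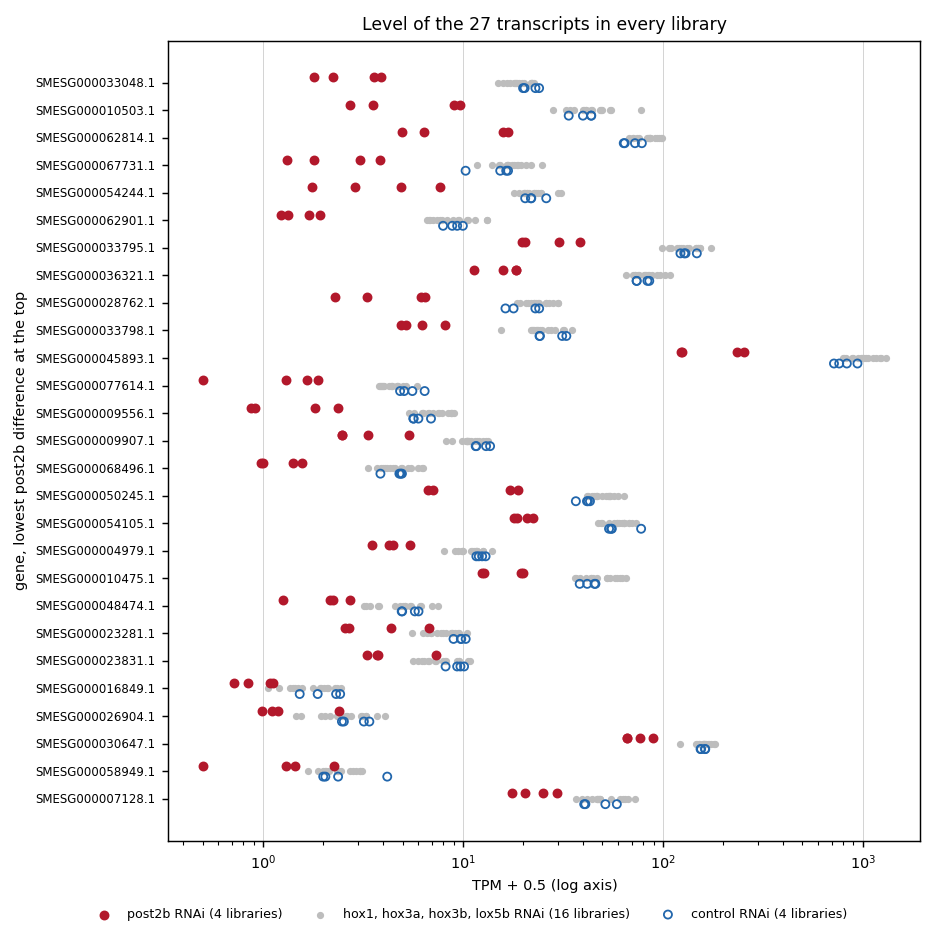
TPM + 0.5 of each of the 27 transcripts on a log axis, with 1 point per library: *post2b* RNAi in red, the 16 other Hox RNAi libraries in grey and control RNAi in open blue circles. Red points lie left of all others in 22 rows, and the exceptions are among the 7 lowest rows.

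SMESG000045893.1 was the most abundant of the set. It had 236, 255, 125 and 122 TPM in the *post2b* libraries, against 833, 942, 763 and 719 TPM in the control libraries. The 16 libraries of the other Hox RNAi groups had 795 to 1312 TPM, so the highest *post2b* library was below the lowest of every other group. SMESG000033795.1 had 38.0, 29.7, 19.9 and 19.2 TPM in *post2b* RNAi, against 128, 148, 129.6 and 122 TPM in control RNAi. SMESG000030647.1 was second in control level, with 89.5, 76.3, 65.7 and 65.7 TPM in *post2b* RNAi, against 162, 163, 155 and 154 TPM in control RNAi. It kept 46.8% of its control level, and its control libraries were the closest of the set, with an SD of 0.04 on the log2 scale.

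The other abundant transcripts also showed no overlap between *post2b* and control libraries. SMESG000036321.1 had 17.9, 15.5, 18.1 and 10.9 TPM in *post2b* RNAi, against 83.4, 85.2, 73.6 and 73.7 TPM in control RNAi. SMESG000062814.1 had 16.4, 15.4, 4.48 and 5.93 TPM in *post2b* RNAi, against 63.4, 72.2, 78.2 and 64.1 TPM in control RNAi. In this transcript the *post2b* libraries differed among themselves more than the control libraries did, with SDs of 0.90 and 0.14 on the log2 scale. SMESG000054105.1 had 22.04, 20.4, 18.3 and 17.5 TPM in *post2b* RNAi, against 77.5, 55.2, 53.4 and 54.7 TPM in control RNAi. Its *post2b* libraries were the closest of all 27, with an SD of 0.15 on the log2 scale.

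The transcript with the lowest difference was SMESG000033048.1, at -2.99. It had 3.42, 3.08, 1.74 and 1.30 TPM in *post2b* RNAi, against 23.6, 22.6, 19.9 and 19.5 TPM in control RNAi. Across all 24 libraries its log2 levels were most like those of SMESG000051338.1, with Pearson's r = 0.98 over 24 libraries, and those of *plg1*, also with r = 0.98. Such likeness over all libraries includes the *post2b* difference that chose the gene. As deviations from group means over the 20 libraries without *post2b* RNAi, the r were 0.18 and 0.44. SMESG000010503.1 followed, at -2.90, with 8.50, 9.22, 3.04 and 2.24 TPM in *post2b* RNAi, against 39.4, 43.4, 43.4 and 33.4 TPM in control RNAi. It was most like *lmnAC* and dd13286, a gene known by its transcript number, each with r = 0.99 over 24 libraries. Within groups over the 20 libraries the r were 0.78 and 0.82. SMESG000062814.1, at -2.86, was most like dd20390 and SMESG000045893.1, each with r = 0.99 over 24 libraries. Its r within groups over the 20 libraries were 0.83 and 0.76.

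Further transcripts had differences of -2 or lower. SMESG000067731.1 had 3.34, 2.58, 1.31 and 0.818 TPM in *post2b* RNAi, against 9.84, 16.4, 16.005 and 14.9 TPM in control RNAi. SMESG000054244.1 had 7.22, 4.42, 2.39 and 1.26 TPM in *post2b* RNAi, against 21.5, 25.7, 20.03 and 21.4 TPM in control RNAi. The lowest control library was above the highest *post2b* library in both. SMESG000062901.1 had 0.837, 1.44, 0.727 and 1.19 TPM in *post2b* RNAi, against 8.36, 8.88, 7.48 and 9.52 TPM in control RNAi. SMESG000028762.1 had 6.01, 5.69, 2.81 and 1.80 TPM in *post2b* RNAi, against 17.5, 23.6, 22.6 and 15.9 TPM in control RNAi. SMESG000033798.1 had 7.68, 5.73, 4.40 and 4.69 TPM in *post2b* RNAi, against 30.9, 32.5, 23.7 and 23.8 TPM in control RNAi. These 3 transcripts showed the same separation between the groups. SMESG000077614.1 had 1.17, 1.40 and 0.810 TPM and a listed 0 in *post2b* RNAi, against 5.10, 4.595, 5.95 and 4.36 TPM in control RNAi.

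The weak end of the set rests on smaller differences. SMESG000058949.1 had 0.948, 0.813 and 1.78 TPM and a listed 0 in *post2b* RNAi, against 3.69, 1.56, 1.88 and 1.51 TPM in control RNAi. It was the 1 transcript of the 27 whose *post2b* and control libraries overlapped. SMESG000007128.1 had 29.2, 20.1, 17.2 and 24.6 TPM in *post2b* RNAi, against 58.5, 51.2, 40.6 and 40.0 TPM in control RNAi. At the *post2b* bound the members just inside were SMESG000007128.1 and SMESG000058949.1, both at -1.06, and SMESG000030647.1 at -1.10. The genes just outside were SMESG000042793.1 at -0.98, SMESG000056172.1 at -0.96 and SMESG000050210.1 at -0.92. At the bound for the other groups, SMESG000026904.1 was just inside with -0.44 in *lox5b* RNAi, SMESG000033798.1 with -0.43 in *lox5b* RNAi and SMESG000016849.1 with -0.43 in *hox3b* RNAi. The nearest genes outside that bound were SMESG000077082.1 and SMESG000014361.1, both at -0.51 in *lox5b* RNAi, and SMESG000051338.1 at -0.53 in *lox5b* RNAi. These 3 genes had *post2b* differences of -3.07, -2.18 and -3.27, so the bound in *lox5b* RNAi separates them from the set by little. At the bound on level, the lowest means were 1.19 TPM for SMESG000016849.1, 1.81 TPM for SMESG000058949.1 and 2.00 TPM for SMESG000026904.1, and 1 gene, SMESG000000555.1, was outside by level alone, at 0.805 TPM. With each of the 24 libraries left out in turn, the rule gave 24 to 30 genes, and 21 of the 27 met it every time.

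The differences from control RNAi in the other 4 groups are bounded below by the rule and are given as a description. These comparisons share the control libraries with each other and with the *post2b* comparison. The median difference of the 27 was 0.11 in *hox1* RNAi, 0.02 in *hox3a* RNAi, 0.01 in *hox3b* RNAi and -0.12 in *lox5b* RNAi. Over all 15829 genes the medians were -0.06, -0.14, -0.05 and -0.15 in the same order, and -0.15 in *post2b* RNAi. TPM were therefore also rescaled by the median of ratios between libraries, which brought these medians to within 0.02 of 0. After rescaling, the median of the 27 was 0.16 in *hox1* RNAi, 0.17 in *hox3a* RNAi, 0.07 in *hox3b* RNAi, 0.02 in *lox5b* RNAi and -1.80 in *post2b* RNAi. In *lox5b* RNAi 7 of the 27 lay above 0 as deposited, as did 34.1% of all genes. After rescaling 15 of the 27 did, where the median of all genes was -0.01. No share of all genes was taken after rescaling, so the 15 are not a result about the set. As deposited, 6 transcripts were above 0 in all 4 groups, 5 were below 0 in all 4 and 16 were mixed. No share of all genes was taken for these signs, so their counts are not a result about the set. SMESG000045893.1 was among those above 0, with 0.25 in *hox1* RNAi, 0.49 in *hox3a* RNAi, 0.19 in *hox3b* RNAi and 0.32 in *lox5b* RNAi. SMESG000077614.1 was among those below 0, with -0.32, -0.15, -0.34 and -0.41 in the same order.

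**Figure D2:**
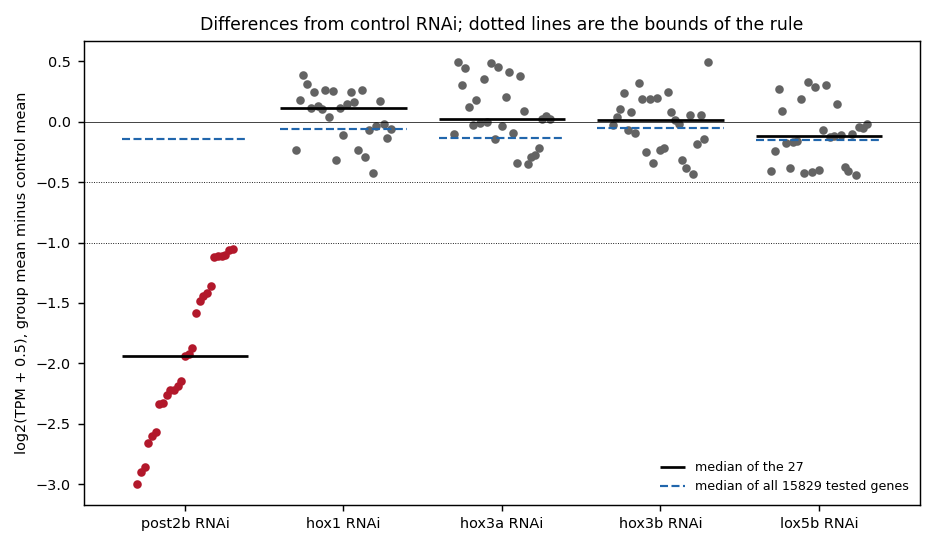
Difference from control RNAi in mean log2(TPM + 0.5) for the 27 transcripts (points) in each Hox RNAi group, with their median (black) and the median of all 15829 genes (dashed). Points in the *post2b* column lie between -2.99 and -1.06, and dotted lines mark the bounds that chose the transcripts.

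Whether the 27 transcripts differed among *hox1*, *hox3a*, *hox3b* and *lox5b* RNAi is a comparison without control or *post2b* RNAi. The rule still holds these groups within a narrow range below, so a share of the 27 is not comparable with one of all genes. A limma F test over the 4 groups, in a fit with all 24 libraries, called 3 of the 27 at an adjusted p under 0.05, and 38.9% of all genes. In that fit the spread of the *post2b* libraries, which was wide for these transcripts, enters the error. With only the 4 groups in the fit, 7 of the 27 (25.9%) and 31.8% of all genes were called, and the 3 were among the 7.

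SMESG000036321.1 was highest in *hox3b* RNAi. It had 81.7, 85.2, 80.1 and 92.9 TPM in *hox1* RNAi, 72.5, 75.3, 83.7 and 81.1 TPM in *hox3a* RNAi, 108, 97.0, 102 and 87.7 TPM in *hox3b* RNAi, and 65.1, 72.3, 70.3 and 74.4 TPM in *lox5b* RNAi. The *hox3b* libraries lay above all *hox3a* and *lox5b* libraries and overlapped with *hox1* RNAi (adjusted p = 0.00694, limma F test with Benjamini-Hochberg adjustment, 0.000719 to 0.0315 over 24 alternatives). SMESG000007128.1 had 44.0, 41.5, 47.7 and 46.6 TPM in *hox1* RNAi, 46.5, 60.4, 39.1 and 47.0 TPM in *hox3a* RNAi, 72.3, 66.7, 62.5 and 64.5 TPM in *hox3b* RNAi, and 36.4, 48.3, 47.9 and 54.6 TPM in *lox5b* RNAi. All 4 *hox3b* libraries lay above the other 12 (adjusted p = 0.0117, limma F test with Benjamini-Hochberg adjustment, 0.00519 to 0.0476 over 24 alternatives). SMESG000062901.1 was the third (adjusted p = 0.0262, limma F test with Benjamini-Hochberg adjustment, 0.00182 to 0.0721 over 24 alternatives), and its call was lost in 7 of the 24 alternatives.

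Compared directly, *hox3a* RNAi and *hox3b* RNAi gave no call among the 27 at an adjusted p under 0.05 and 1.5-fold by limma. Over all genes 0.291% were called higher and 0.183% lower by that same standard. By limma at an unadjusted p under 0.05, 2 of the 27 were higher and 3 lower in *hox3a* RNAi. As no share of all genes was taken at that looser bound, these counts are not a result about the set. SMESG000007128.1 had a log2 difference of -0.47 (standard error 0.15, adjusted p = 0.101 by Benjamini-Hochberg, limma), and it was called, at -0.59, without *hox3a* replicate 2. In *hox1* RNAi against *lox5b* RNAi, 1 of the 27 was called higher and 0 lower, against 5.26% and 1.09% of all genes. By limma at an unadjusted p under 0.05, 5 were higher and 0 lower. No share of all genes was taken at that looser bound, so these counts are not a result about the set. The 1 called was SMESG000062901.1, with 9.997, 12.8, 6.64 and 12.8 TPM in *hox1* RNAi, against 6.12, 6.40, 6.29 and 6.93 TPM in *lox5b* RNAi. The groups overlapped through *hox1* replicate 3, and the log2 difference was 0.63 (standard error 0.17, adjusted p = 0.00843, Benjamini-Hochberg over all genes, limma, 0.000513 to 0.0369 over 16 alternatives). It was under 1.5-fold without *hox1* replicate 2 (0.53), without *hox1* replicate 4 (0.53) and after rescaling (0.54).

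In *hox3a* RNAi against *lox5b* RNAi, 1 of the 27 was called higher and 0 lower, against 3.91% and 2.6% of all genes. By limma at an unadjusted p under 0.05, 5 were higher and 0 lower. Here too no share of all genes was taken at the looser bound, and the counts are not a result about the set. The 1 called was SMESG000010503.1, with 43.1, 54.3, 54.6 and 77.5 TPM in *hox3a* RNAi, against 32.5, 41.1, 33.9 and 27.8 TPM in *lox5b* RNAi. All *hox3a* libraries lay above all *lox5b* libraries. The log2 difference was 0.74 (standard error 0.27, adjusted p = 0.0473, Benjamini-Hochberg over all genes, limma, 0.0128 to 0.143 over 16 alternatives), and 11 of the 16 alternatives lost the call.

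How the 27 transcripts varied among the *post2b* libraries was not used by the rule, which takes their mean. The SD over the 4 *post2b* libraries had a median of 0.53 on the log2 scale, against 0.14 over the 4 control libraries. For all 15829 genes these medians were 0.14 and 0.13. The SD was larger in *post2b* than in control libraries for 25 of the 27 and for 56.6% of all genes. Low levels alone widen a log2 spread, and the part of level in this was not tested. SMESG000045893.1, the most abundant, had SDs of 0.57 in *post2b* and 0.17 in control RNAi, and SMESG000054105.1 had SDs of 0.15 in *post2b* and 0.25 in control RNAi. The widest spreads in *post2b* RNAi were 0.93 for SMESG000010503.1, 0.93 for SMESG000054244.1 and 0.92 for SMESG000058949.1. The narrowest were 0.15 for SMESG000054105.1, 0.21 for SMESG000030647.1 and 0.26 for SMESG000004979.1.

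The spread had a shared order. For 18 of the 27, *post2b* replicates 1 and 2 were both above replicates 3 and 4, an order seen in 16.3% of all 15829 genes. After rescaling these were 18 of 27 and 17.6%. The mean log2 level of the 27 was 2.84, 2.62, 2.12 and 2.00 in replicates 1 to 4. The lowest library was replicate 3 for 12 transcripts and replicate 4 for 13, against 23.2% and 21.9% of all genes. The highest was replicate 1 for 16 of the 27 and for 40.4% of all genes. The 7 Epidermal-10 effectors all had replicates 1 and 2 above 3 and 4, as did 1 of the 3 Parenchymal-8/13 effectors. *ifb* had 79.7, 56.4, 22.4 and 15.3 TPM in the *post2b* libraries, against 296, 333, 305 and 267 TPM in control RNAi. *rcn-1* did not have the order, with 605, 567, 559 and 638 TPM in the *post2b* libraries, against 1216, 1067, 1104 and 1048 TPM in control RNAi. In whole animals these *rcn-1* values are not those of gland cells alone. The mean log2 level of the 7 Epidermal-10 effectors was 1.72 to 3.16 in the *post2b* libraries and 4.49 to 5.40 in the other 20, and none of the 7 was at 0 in any *post2b* library. The part of these cells in the order was not tested, nor was the silencing of *post2b* in each pool.

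**Figure D3:**
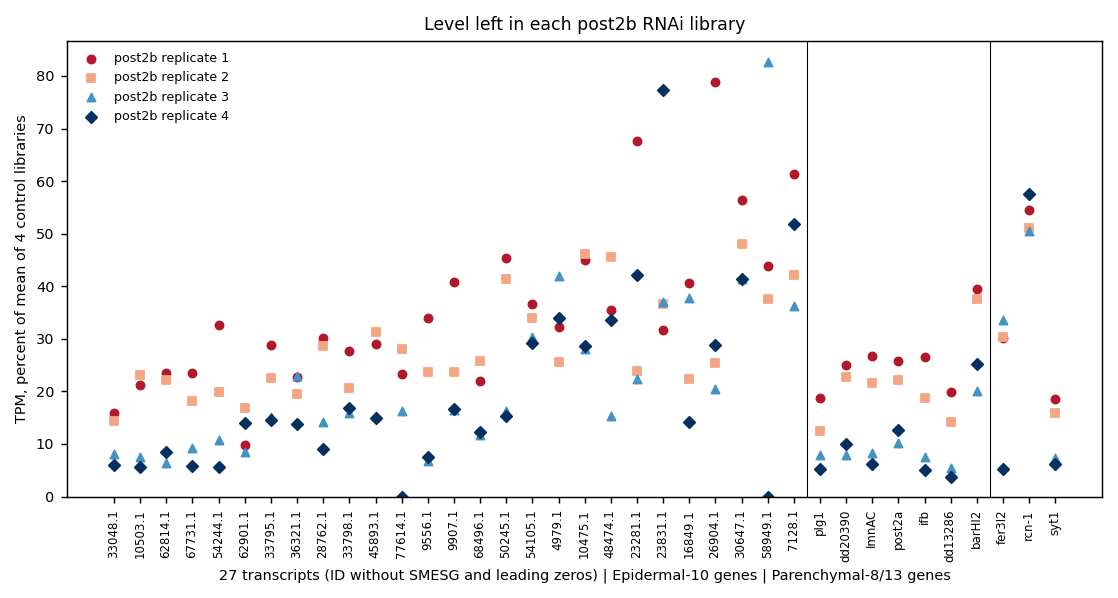
TPM in each *post2b* RNAi library as percent of the mean of 4 control libraries, for the 27 transcripts in order of their *post2b* difference, then 7 Epidermal-10 and 3 Parenchymal-8/13 effectors. Replicates 1 and 2 (red circles and orange squares) lie above replicates 3 and 4 (blue triangles and diamonds) for 18 of the 27 and for all 7 Epidermal-10 genes.

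The 20 libraries without *post2b* RNAi give a second view that the *post2b* difference does not enter. Each gene's log2 levels were set against its group mean, and Pearson's r of these deviations was taken over the 20 libraries as a description, since libraries share their scale and their groups. With *ifb* the median r of the 27 was 0.49 and 12 of the 27 reached 0.5, as did 13.02% of all genes, whose median was near 0. With *plg1* the median was 0.53 and 14 of the 27 reached 0.5, as did 11.4% of all genes. With *lmnAC* the median was 0.48 and 13 reached 0.5, as did 13.1% of all genes. For the other Epidermal-10 effectors the medians were 0.48 for dd13286, 0.40 for *post2a*, 0.34 for dd20390 and 0.31 for *barHl2*. For the Parenchymal-8/13 effectors they were 0.39 for *rcn-1*, 0.33 for *syt1* and 0.24 for *fer3l2*, so the 2 sets of medians overlapped. Over all genes the medians were 0.10 for *rcn-1*, 0.16 for *syt1* and -0.04 for *fer3l2*. With *rcn-1*, 6 of the 27 reached 0.5, as did 6.54% of all genes, and with *syt1* 4 of the 27 did, as did 10.4% of all genes. With *fer3l2* 2 did, as did 2.43% of all genes, and with *barHl2* 3 did, as did 3.41%. The counts were 12 for dd13286, 12 for dd20390 and 9 for *post2a*, beside 12.9%, 9.96% and 5.48% of all genes. The highest values were r = 0.88 between SMESG000033795.1 and dd13286, and r = 0.84 between SMESG000045893.1 and *ifb*. Many genes outside the set were as close to *ifb*, and SMESG000045893.1 ranked 37 among all genes. After rescaling, the median r with *ifb* was 0.48 and 13 of the 27 reached 0.5, against 15.6% of all genes.

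Likeness to *ifb* in the other libraries was set beside the order in *post2b* RNAi. Of the 18 transcripts with that order, 12 reached r = 0.5 with *ifb*, and the median of the 18 was 0.64. Of the 9 without it, 0 reached 0.5 and their median was 0.21. The ranges overlapped, since SMESG000023831.1 at 0.499 and SMESG000036321.1 at 0.47 did not have the order, and SMESG000033048.1 at 0.39, SMESG000048474.1 at 0.30 and SMESG000077614.1 at 0.20 did. The transcripts without the order include SMESG000016849.1, SMESG000058949.1 and SMESG000026904.1, with control means of 1.54, 2.16 and 2.41 TPM. They also include SMESG000036321.1 and SMESG000007128.1, with 79.0 and 47.6 TPM. The part of level in the split was not tested, nor that of the size of the *post2b* difference. This split was made after the values were seen, and has no test. SMESG000030647.1 stood apart, with the order in *post2b* RNAi but r = -0.41 with *ifb* and -0.42 with *rcn-1*. SMESG000023831.1 and SMESG000054105.1 were most like *rcn-1* among the effectors, at r = 0.67 and 0.66. Among the 351 pairs of the 27, the median r was 0.20, against 0.01 for pairs with other genes. The closest pair was SMESG000045893.1 and SMESG000009556.1, at r = 0.91. SMESG000009556.1 is much less abundant, with 1.89, 1.33, 0.373 and 0.420 TPM in *post2b* RNAi, against 5.50, 6.44, 5.18 and 5.16 TPM in control RNAi.

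**Figure D4:**
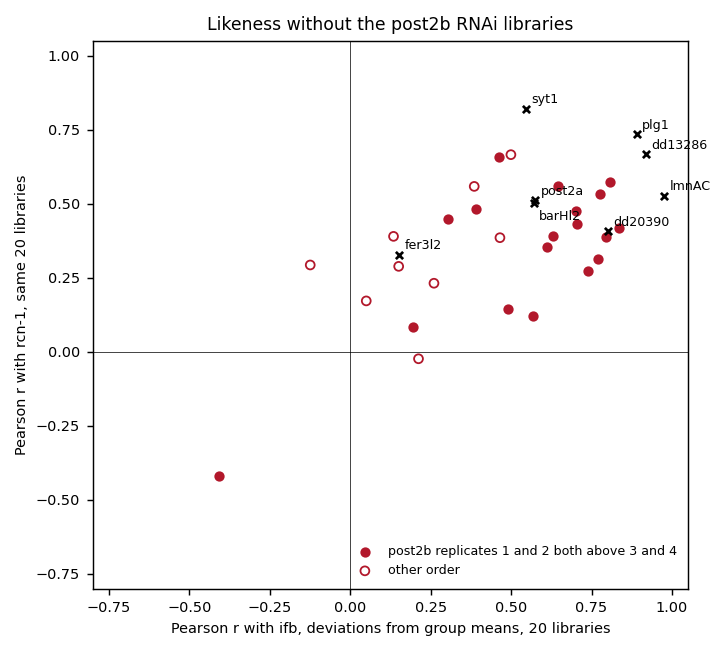
Pearson's r with *ifb* (x axis) and with *rcn-1* (y axis) over the deviations from group means in 20 libraries without *post2b* RNAi. Circles are the 27 transcripts, filled for the 18 with replicates 1 and 2 above replicates 3 and 4 in *post2b* RNAi, and crosses are effectors of the study. The 12 transcripts at r = 0.5 or more with *ifb* are all filled.

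The remaining transcripts followed the same pattern of *post2b* below control. SMESG000050245.1 had 18.4, 16.8, 6.63 and 6.23 TPM in *post2b* RNAi, against 41.3, 42.8, 41.8 and 36.3 TPM in control RNAi. SMESG000010475.1 had 19.2, 19.6, 11.9 and 12.2 TPM in *post2b* RNAi, against 38.0, 45.6, 45.1 and 41.4 TPM in control RNAi. Both had the shared order. SMESG000009907.1 had 4.91, 2.86, 1.98 and 2.00 TPM in *post2b* RNAi, against 11.1, 13.2, 12.6 and 11.2 TPM in control RNAi. SMESG000004979.1 had 3.80, 3.03, 4.95 and 4.01 TPM in *post2b* RNAi, against 12.01, 12.5, 11.2 and 11.5 TPM in control RNAi, and replicate 3 was its highest *post2b* library. SMESG000068496.1 and SMESG000048474.1 kept 17.9% and 32.5% of their control levels, and SMESG000023281.1, SMESG000023831.1, SMESG000016849.1 and SMESG000026904.1 kept 39.0%, 45.6%, 28.8% and 38.4%. In the last 4 the highest *post2b* library was above the lowest of the other Hox RNAi libraries, at 6.25 against 5.06 TPM in SMESG000023281.1 and 6.85 against 5.13 TPM in SMESG000023831.1.

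Of the 15 *post2b* effectors on the study's list, 11 had a *post2b* difference of -1 or lower and 6 met the whole rule. The effectors *plg1* and dd13286, with *post2b* differences of -3.19 and -3.06, were outside it through *lox5b* RNAi, at -0.65 and -0.57. The rule gave 34 genes for *post2b* RNAi before any was left out by name. Applied to each other group in turn, it gave 31 genes for *hox1* RNAi, 2 for *hox3a* RNAi, 0 for *hox3b* RNAi and 64 for *lox5b* RNAi.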

How the data were processed

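RNA-seq of 24 libraries was used, each a pool of 3 animals. For the TPM deposited here, the authors prepared stranded mRNA libraries, ran bcl2fastq2 (version 2.20) on the reads and mapped them with STAR. The genome was smed_dd_g4 and the gene models Smes_hv_v1. The table holds 22197 genes, and each library sums to 1000000. The tool that made TPM is not given in the sources used here. The depth is unknown, so precision rests on the spread between libraries.

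The 27 members and all lists were chosen with earlier results of these data known. Values were used as log2(TPM + 0.5), on which fold changes of low genes are understated. Genes reaching 0.5 TPM in 4 or more libraries were tested, 15829 in all. A linear model of RNAi group was fitted to all libraries in limma (version 3.58.1, R version 4.3.3), using eBayes with trend. Two-sided p-values were adjusted by the Benjamini-Hochberg method across the tested genes. A call needed an adjusted p under 0.05 and 1.5-fold, or the adjusted p alone in the F test. Contrasts used to choose the members were not tested. The rule and the model were run on simulated data as a check of the code. The data simulated for the rule had less spread than these libraries, so they do not show how it behaves near its bounds.

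Named were the 8 members with the highest control level, the 12 with the lowest *post2b* difference, the 3 nearest to each bound on either side, those called, the 3 with the widest and narrowest *post2b* spread, and the 2 genes most like each of the 3 lowest. The other members, the order of *post2b* libraries and the likeness over 20 libraries were added after values were seen. Other settings were pseudocounts of 0.1 and 1, other filters and bounds, rescaling, no intensity trend, only the groups compared, the replicate number as a block, and leaving out each library. In the tests, only libraries of the groups compared were left out.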

Additional observations from a re-analysis of the deposited data

Results flagged for a closer look

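In 162 groups of 4 libraries (27 transcripts in 6 RNAi groups), 9 held a library far from the other 3, with a gap above Dixon's 95% critical value. Chance flags about 1 in 20 such groups. In *post2b* RNAi, SMESG000023831.1 had 6.85 TPM in replicate 4, against 2.80 to 3.29 TPM in the others, and SMESG000026904.1 had 1.90 TPM in replicate 1, against 0.496 to 0.698 TPM in the others. In *hox3a* RNAi, SMESG000009556.1 had 6.25 TPM in replicate 1, against 8.20 to 8.59 TPM. In *hox3b* RNAi, SMESG000033048.1 had 19.2 TPM in replicate 4, against 21.5 to 21.7 TPM, SMESG000033798.1 had 26.2 TPM in replicate 4, against 21.8 to 22.2 TPM, and SMESG000058949.1 had 2.57 TPM in replicate 1, against 1.51 to 1.64 TPM. In *lox5b* RNAi, SMESG000016849.1 had 0.875 TPM in replicate 3, against 1.52 to 1.61 TPM. In control RNAi, SMESG000068496.1 had 3.38 TPM in replicate 3, against 4.32 to 4.47 TPM, and SMESG000054105.1 had 77.5 TPM in replicate 1, against 53.4 to 55.2 TPM.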

How the results depend on the processing

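The rule gave 27 genes and kept within 1.5 times of that count under other pseudocounts, other filters, rescaling (27 genes, 22 shared) and each library left out (24 to 30). It gave 17 genes with a *post2b* bound of -1.5 and 16 with a bound of -0.25 in the other groups. After rescaling, SMESG000023831.1, SMESG000026904.1, SMESG000030647.1, SMESG000058949.1 and SMESG000007128.1 no longer met it. In the F test and the comparisons that follow, only libraries of the groups compared were left out, and no *post2b* or control library was. The F test among *hox1*, *hox3a*, *hox3b* and *lox5b* RNAi called 3 members and 7 with only these groups in the fit. It called 2 to 5 with each library of these groups left out, the 5 without *hox3a* replicate 4. The comparison of *hox3a* with *hox3b* RNAi called 0 members, and 0 to 1 with each library left out. The comparison of *hox1* with *lox5b* RNAi called 1 member, 0 after rescaling, and 0 to 2 with each library left out: 0 without *hox1* replicate 2 or 4, and 2 without *hox1* replicate 3 or *lox5b* replicate 3. The comparison of *hox3a* with *lox5b* RNAi called 1 member, 0 with a pseudocount of 0.1, no filter, rescaling, the replicate block or no intensity trend, and 0 to 1 with each library left out, with the 0 falling without *hox3a* replicate 2, 3 or 4 or *lox5b* replicate 1, 3 or 4. The causes were not tested. Replicates were numbered here by the running number in the library titles. Same-numbered libraries of different groups had a mean r of 0.0039 in their deviations, with 9 of 60 pairs above 0.1. Pairs with different numbers had a mean r of -0.0013, with 33 of 180 above 0.1, so no likeness by number was seen. The block changed no other count by over 1.5 times. Alternatives on order and likeness, chosen after seeing the data, gave 18 members with the order after rescaling, and 12 to 16 with r of at least 0.5 to *ifb*. TPM holds no depth, so low levels such as those under 1 TPM have no counting error given.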
